A study of Homo sapiens with 4 samples.

Results

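The genes that encode the NF-κB subunits and their inhibitors were followed in ES-2 cells depleted of the YAP1-MAML2 (YM) fusion. They were chosen by symbol: the 5 subunit genes NFKB1, NFKB2, REL, RELA and RELB, and the 5 inhibitor genes NFKBIA, NFKBIB, NFKBIE, NFKBIZ and TNFAIP3. All 10 are among the 19626 genes of the deposited tables, and all 10 were above 1 RPKM in every library and were tested. ES-2 is an established human ovarian cancer line, labelled as clear cell carcinoma, that carries the endogenous YM fusion. Every culture received a pLKO.1 lentivirus, carrying either a nontargeting control shRNA (shCtl, 2 biological replicates) or shM2-3 (2 biological replicates), an shRNA to a sequence present in both MAML2 and the fusion. Per the labels, cells were infected for 8 h on each of 2 consecutive days and RNA was isolated 96 h after the first infection, while the study's methods give a shorter time. A single cell line and a single shRNA were compared with the control, so loss of MAML2, loss of the fusion and other effects of shM2-3 cannot be told apart.

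NF-κB is a family of dimeric transcription factors that switch on genes of inflammation and cell survival. RELA, REL and RELB carry transactivation domains, whereas NFKB1 and NFKB2 are made as long precursors (p105 and p100) that hold dimers back until they are cut to the DNA-binding forms p50 and p52. In resting cells the IκB proteins keep dimers in the cytoplasm, the IKK kinases mark them for degradation, and NF-κB then induces several of its own inhibitors, NFKBIA above all, in a negative feedback loop. These activities turn on protein modification and location, and mRNA levels do not measure them.

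NF-κB dimers bind a short element, the κB site, and κB sites in the promoters of the inhibitors are what closes that loop, so the promoter letters of these genes are shown first. The motif searched was 3 G, a purine, any 2 bases, 2 pyrimidines and 2 C, 10 letters in all, on both strands and with overlapping matches merged, in the 300 bases from 250 before to 50 after each start in RefSeq (GRCh38.p14). Of the 10 genes 8 have entries, with 14 windows between them, and RELB and NFKBIE were not searched. The motif was present in 9 of the 14 windows (64.3%), against 3956 of 35116 windows over all genes (11.3%). By gene, 7 of the 8 held it in at least 1 window (87.5%), against 3619 of 27305 genes (13.3%). RELA was the exception, with no match in either of its 2 windows. In the lines that follow, the capitals mark the match, each sequence is read 5′ to 3′ on the strand of the gene, and the positions are counted from the start of transcription.
NFKB1 (chr4:102501301-102501328, plus strand, -49 to -40): gacgtcagtGGGAATTTCCagccaggaa
NFKB2, RefSeq start 2 (chr10:102394462-102394490, plus strand, -107 to -97): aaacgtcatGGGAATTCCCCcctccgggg
NFKB2, RefSeq start 2 (chr10:102394491-102394518, plus strand, -78 to -69): ggccgagaaGGGGCTTTCCcggccctga
NFKB2, RefSeq start 3 (chr10:102395520-102395547, plus strand, -176 to -167): acccccaccGGGGCTTCCCggattctcc
NFKB2, RefSeq start 3 (chr10:102395675-102395702, plus strand, -21 to -12): ggtattttcGGGACTTTCCtaagctgct
REL (chr2:60881518-60881546, plus strand, -47 to -37): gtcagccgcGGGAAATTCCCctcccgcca
NFKBIB, RefSeq start 2 (chr19:38899932-38899960, plus strand, -28 to -18): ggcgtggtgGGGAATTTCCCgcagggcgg
NFKBIZ, RefSeq start 1 (chr3:101827758-101827785, plus strand, -223 to -214): ttttggtctGGGAATTTCCagtgtgcag
NFKBIZ, RefSeq start 2 (chr3:101849266-101849293, plus strand, -239 to -230): cgcgctgtcGGGGTTTCCCggtgaaggg
TNFAIP3 (chr6:137867183-137867210, plus strand, -67 to -58): cgtgactttGGAAAGTCCCgtggaaatc
TNFAIP3 (chr6:137867195-137867222, plus strand, -55 to -46): aagtcccgtGGAAATCCCCgggcctaca

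In TNFAIP3 both matches read on the opposite strand and lie close together. NFKB2 held 2 matches in each of 2 windows and none in its RefSeq start 1, and NFKBIB held a further match downstream of its start 2, from 39 to 48. Of the 13 matches found, 10 overlap an exon of some transcript in GENCODE with their flanks, 9 of them in an untranslated part. For NFKBIA, the classic target of the loop, the whole 250 bases before the start are given.
NFKBIA (chr14:35404750-35404999, minus strand): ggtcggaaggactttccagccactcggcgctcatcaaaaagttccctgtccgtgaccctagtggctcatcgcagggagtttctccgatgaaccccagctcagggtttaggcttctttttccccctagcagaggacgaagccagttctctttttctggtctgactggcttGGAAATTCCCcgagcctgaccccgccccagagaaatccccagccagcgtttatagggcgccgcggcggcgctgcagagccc
Its match lies between -81 and -72 and reads on the opposite strand. The core letters of the TEAD site, GGAATG, were searched in the same way because the YM fusion works through TEAD factors. They were present in 1 of the 14 windows (7.14%), a second start of NFKB1, and in 4928 of the 35116 windows over all genes (14.0%). A match describes the letters of the window and was not tested as a binding site in these cells.

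**Figure D1:**
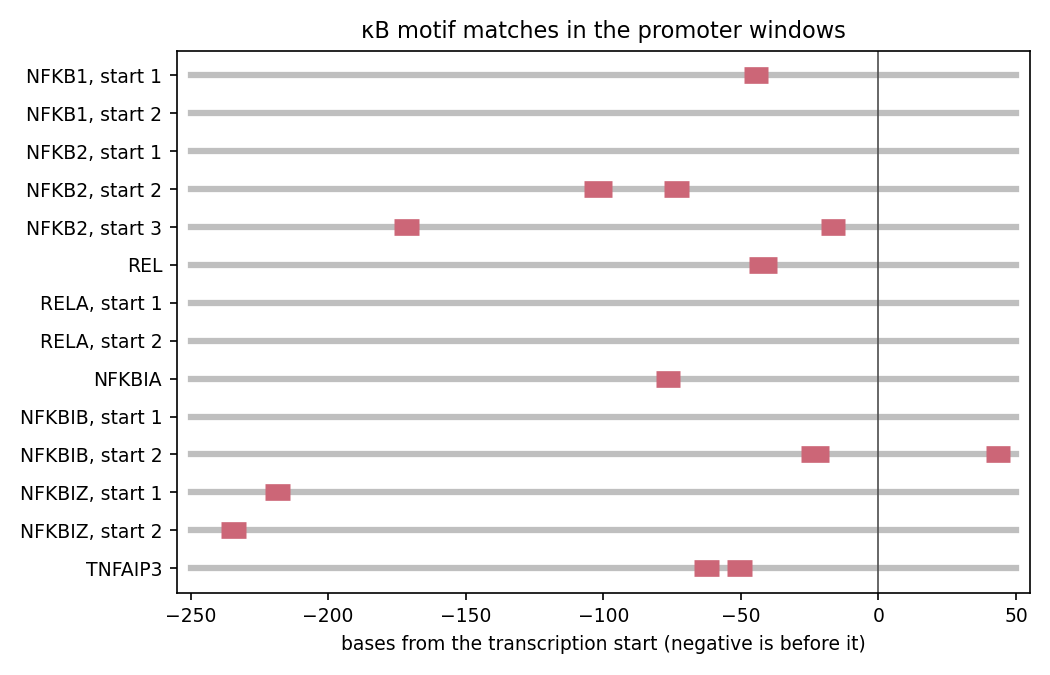
Matches to the κB motif in the RefSeq promoter windows of the genes with entries. The horizontal axis is the distance in bases from the start of transcription, each line is 1 window, and each mark is a match. Matches stood in 9 of the 14 windows and in neither window of RELA.

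The libraries held 20051083 and 20423873 estimated counts in shCtl and 23978660 and 21813798 in shM2-3, and the genes described here had between 227 and 3783 counts in a library. MAML2, the target of the shRNA, had 1436 and 1402 counts with shCtl against 634 and 553 with shM2-3. Its RPKM, the count scaled by gene length and by library, averaged 8.44 ± 0.243 (SD, n = 2) with shCtl against 3.05 ± 0.0776 (SD, n = 2) with shM2-3. The paper finds MAML2 exons in the fusion transcript, so the MAML2 values can mix reads of MAML2 and of the fusion. Of the 7 epithelial markers, the keratins KRT7, KRT8 and KRT18 were well above 1 RPKM in all 4 libraries, and KRT19, EPCAM and CDH1, like NAPSA and PAX8, which mark clear cell and Müllerian tumours, stayed under it. The epithelial list summed to 638 and 638 RPKM in shCtl and 314 and 318 in shM2-3, nearly all of it the 3 keratins, while the mucin MUC1 was higher with shM2-3 (0.859 and 0.793 against 1.46 and 1.81 RPKM). The fibroblast markers summed to 8.01 and 7.95 in shCtl and 25.7 and 25.1 in shM2-3, nearly all of it PDGFRA, and the endothelial ones to 9.40 and 10.6 against 5.65 and 5.09. Within the endothelial list CDH5 was lower (9.14 and 10.2 against 4.17 and 4.03 RPKM) and PECAM1 higher (0.0376 and 0.0308 against 1.31 and 0.923). The 5 leukocyte markers in the tables, which stand for cells rich in NF-κB, summed to 1.19 and 0.524 against 3.62 and 1.27, with PTPRC, the pan-leukocyte gene, at 0.0173 RPKM or less. Most of that sum was LYZ, except in shM2-3 replicate 2 (33 and 15 counts against 100 and 5), and CD14 went from 3 and 4 counts to 42 and 37. The part of these shifts in the results that follow was not tested, and in bulk RNA fewer cells of a type and less RNA per cell cannot be told apart. The libraries of a group were labelled as biological replicates with nothing on separate cultures, so p-values measure the spread between these samples.

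The inhibitors NFKBIA and NFKBIZ and the subunit RELB rose by 1.65-fold to 1.87-fold in shM2-3, the subunit NFKB2 fell to 68.9% of its level, and the other 6 genes had smaller fold changes. Of the 10 genes, 7 passed an adjusted p of 0.05. Every adjusted p given here comes from the quasi-likelihood test of edgeR, adjusted by Benjamini-Hochberg over all 12157 genes tested, unless another tool is named. NFKB1, RELB, NFKBIA and NFKBIZ were the 4 higher, where 36.3% of all genes tested passed in that direction. NFKB2, REL and RELA were the 3 lower, against 36.4% of all genes. No gene of the 10 reached the fold change of 2 that the study required of a call, whereas 9.24% of all genes were called higher and 8.93% lower. DESeq2 and limma called 0 of the 10 as well. An unadjusted p below 0.05 in edgeR was found for 8. That limit is looser than the adjusted one, which 36.3% of all genes passed as higher and 36.4% as lower. The share of all genes below the unadjusted limit is not given, so the 8 cannot be set against genes in general. The median log2 fold change was 0.15 over the 10 genes and -0.0037 over all genes, and the median size of the change, without its sign, was 0.25 and 0.45. The counts of genes that passed were thus near those of genes in general, and the median size of the change was smaller.

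**Figure D2:**
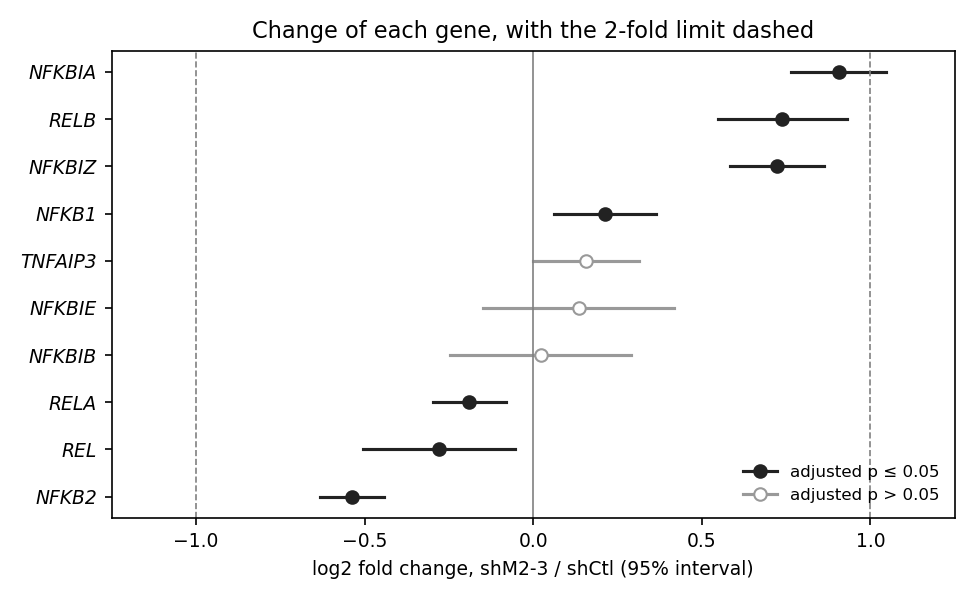
Log2 fold changes of the 10 genes in shM2-3 relative to shCtl, from edgeR, with 95% intervals. Intervals of NFKBIA, RELB and NFKBIZ lie well above 0, that of NFKB2 lies well below, and no estimate reaches the change of 1 that corresponds to 2-fold.

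On the RPKM scale, RELA (shCtl 59.2) was the most abundant of the 10 transcripts in shCtl, ahead of NFKB2 (36.1) and NFKBIA (35.7), whose libraries overlapped. RELB, TNFAIP3 and NFKBIZ, at 8.34 to 8.89, overlapped one another in shCtl. NFKB1, NFKBIB and NFKBIE stood below them in that order, and REL was lowest at 1.70. In shM2-3 NFKBIA led at 64.0, above RELA at 49.6, NFKB2 at 23.8 and RELB at 14.2, with no overlap between neighbours of that order. NFKBIA thus went from the third place to the first, and REL stayed last. These places depend on the length used for each gene. By counts, REL was above NFKBIB and NFKBIE, and NFKBIA below RELA, in every library.

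**Figure D3:**
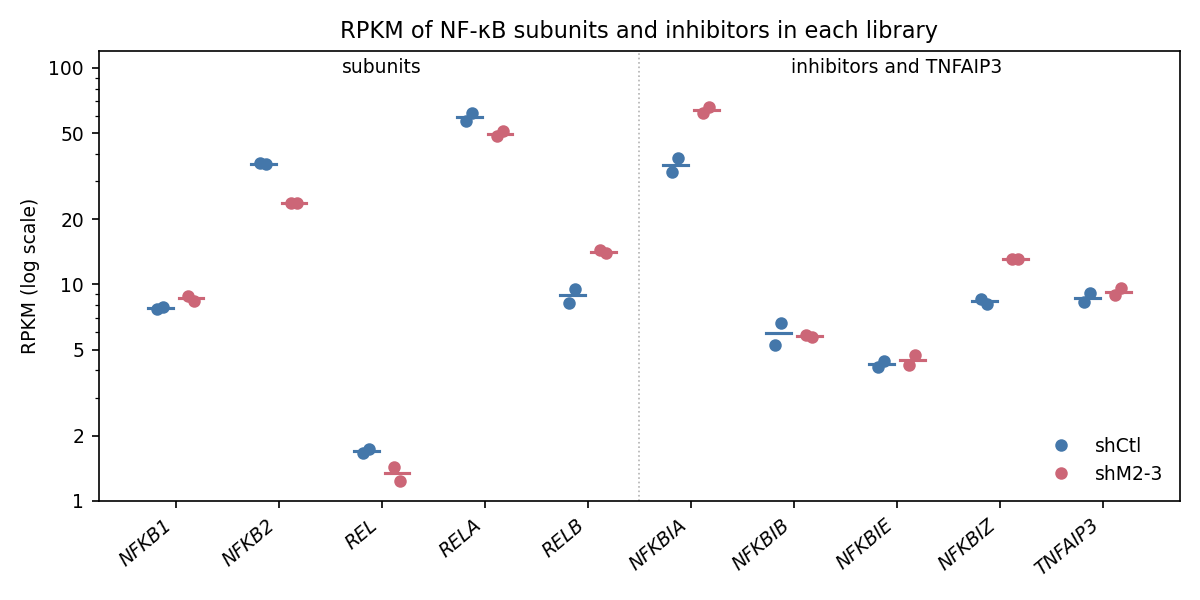
RPKM of the 10 genes in each library, on a log axis. Each point is 1 library, and shCtl and shM2-3 are drawn in different colours. NFKBIA and RELB sit higher with shM2-3 than with shCtl in every pair of libraries, NFKB2 sits lower, and NFKBIB overlaps. Bars mark the mean of each group.

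RELA encodes p65, the transactivating partner of the classical p50-p65 dimer, and lies on chromosome 11 (hg38, 65653599 to 65663090, minus strand). Its RPKM values were 56.8 and 61.6 in shCtl against 48.3 and 51.0 in shM2-3, from 3432 and 3783 counts against 3565 and 3407. Both shM2-3 libraries were below both shCtl libraries on the RPKM scale. The log2 fold change was -0.19 (standard error 0.0505, 95% interval -0.30 to -0.08, adjusted p = 0.00421). RELA shares 103 exonic bases with RELA-DT, a noncoding RNA on the opposite strand, and the libraries do not keep strand.

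NFKB1, the source of p50, lies on chromosome 4 (102501330 to 102617302, plus strand). Its RPKM was 7.73 and 7.85 in shCtl and 8.87 and 8.38 in shM2-3, from 777 and 802 counts against 1090 and 932. The shM2-3 libraries were the higher ones, by a log2 fold change of 0.21 (standard error 0.0698, 95% interval 0.06 to 0.36, adjusted p = 0.0142). That call was lost in 5 of 11 alternatives, with an adjusted p of 0.0636 in DESeq2, 0.0546 without shCtl replicate 1 and 0.109 without shM2-3 replicate 1.

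REL encodes c-Rel, a subunit best known from lymphocytes, and lies on chromosome 2 (60881491 to 60931612, plus strand). REL was measured at 1.66 and 1.74 RPKM in shCtl against 1.44 and 1.24 in shM2-3, from 437 and 464 counts against 462 and 359. Its shM2-3 libraries were lower, and shM2-3 replicate 2 lowest. The log2 fold change of REL was -0.28 (standard error 0.104, 95% interval -0.51 to -0.05, adjusted p = 0.0273), and it no longer passed in 5 of 11 alternatives, with an adjusted p of 0.102 in DESeq2, 0.0828 without shCtl replicate 2 and 0.195 without shM2-3 replicate 2. REL shares 5702 exonic bases with an unnamed long noncoding RNA on the same strand, so its reads may not all be its own.

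NFKB2 and RELB form the p52-RelB dimer of the noncanonical branch, in which the kinase NIK (the product of MAP3K14) triggers the cutting of p100. The pair moved in opposite directions. NFKB2 (chromosome 10, 102394110 to 102402524, plus strand) stood at 36.5 and 35.8 RPKM in shCtl against 23.7 and 23.8 in shM2-3, from 3225 and 3221 counts against 2568 and 2334. The replicates of each group lay close together and the groups far apart. NFKB2 fell by 0.54 on the log2 scale (standard error 0.0444, 95% interval -0.63 to -0.44, adjusted p = 1.18e-07).

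RELB (chromosome 19, 45001461 to 45038192, plus strand) was counted 434 and 513 times in shCtl against 928 and 816 times in shM2-3. Its RPKM was 8.22 and 9.55 in shCtl and 14.4 and 14.0 in shM2-3, with the lower shM2-3 library well above the higher shCtl library. RELB rose 1.67-fold, a log2 fold change of 0.74 (standard error 0.0884, 95% interval 0.55 to 0.93, adjusted p = 4.91e-06). NFKB2 and RELB passed the test in all 11 alternatives.

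The makeup of the subunit pool was read as each gene's share of the summed RPKM of the 5 subunits, a ratio within a library that does not depend on how libraries are scaled. RELA made up 51.2% and 52.9% of the pool in shCtl and 49.9% and 51.8% in shM2-3, so the groups overlapped. The share of NFKB2 was 32.9% and 30.7% in shCtl and 24.6% and 24.2% in shM2-3, lower in both. RELB made up 7.41% and 8.20% against 14.9% and 14.2%. NFKB1 went from 6.97% and 6.74% to 9.18% and 8.52%, without overlap, and REL held the smallest share of the summed RPKM in every library, 1.26% at its lowest. By summed counts, which are not corrected for length, REL averaged 5.27% in shCtl and 4.97% in shM2-3, and in shCtl replicate 1 RELB (5.23%) was below REL (5.26%). The pool as a whole summed to 111 and 117 RPKM in shCtl and 96.7 and 98.4 in shM2-3. Per RELB transcript there were 4.43 and 3.75 of NFKB2 in shCtl and 1.65 and 1.71 in shM2-3. These shares and ratios are given as a description, with no test.

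**Figure D4:**
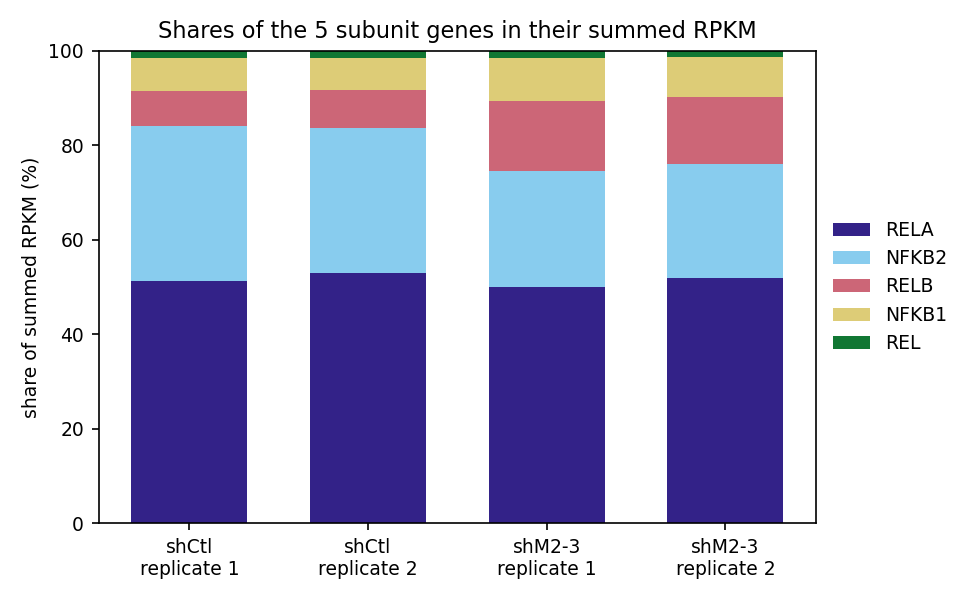
Share of each NF-κB subunit gene in the summed RPKM of the 5 subunits, in percent, for each library. The RELB share is larger and the NFKB2 share smaller in both shM2-3 libraries, and the RELA share is close to 50% in all 4.

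Among the inhibitors, NFKBIA encodes IκBα, which masks RELA-containing dimers and is resynthesized after each round of activation. It lies on chromosome 14 (35401079 to 35404749, minus strand). NFKBIA stood at 33.1 and 38.3 RPKM in shCtl against 62.1 and 65.8 in shM2-3, from 1216 and 1431 counts against 2789 and 2674. The groups were far apart. It showed the largest change of the 10 genes, a rise of 1.87-fold (log2 fold change 0.91, standard error 0.0654, 95% interval 0.76 to 1.05, adjusted p = 3.00e-08). In size that change exceeded 78.1% of all genes tested. It passed the test in all 11 alternatives, and without shCtl replicate 2 it reached 1.01 and the 2-fold limit.

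NFKBIB and NFKBIE encode IκBβ and IκBε, inhibitors of the same fold. NFKBIB (chromosome 19, 38899700 to 38908893, plus strand) was measured at 5.27 and 6.64 RPKM in shCtl and 5.81 and 5.73 in shM2-3, from 289 and 370 counts against 390 and 348. The shM2-3 libraries lay inside the range of the shCtl ones. The log2 fold change was 0.02 (95% interval -0.25 to 0.29, adjusted p = 0.882), and its sign turned in several alternatives. NFKBIB shares 40 exonic bases with SIRT2 on the opposite strand, whose log2 fold change was -0.10 (adjusted p = 0.361).

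NFKBIE (chromosome 6, 44258166 to 44265788, minus strand) gave RPKM values of 4.13 and 4.42 in shCtl against 4.24 and 4.74 in shM2-3, which overlap, from 227 and 247 counts against 285 and 288. Scaled by the library sizes used in the test, its counts did not overlap. Its log2 fold change was 0.13 (95% interval -0.15 to 0.42, adjusted p = 0.371). The interval takes in both a small fall and a rise of moderate size. NFKBIA accordingly made up a larger part of these 3 IκB transcripts, with 77.9% and 77.6% of their summed RPKM in shCtl and 86.1% and 86.3% in shM2-3.

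NFKBIZ encodes IκBζ, an atypical nuclear IκB protein that acts as a cofactor on some NF-κB targets. NFKBIZ (chromosome 3, 101827991 to 101861022, plus strand) was measured at 8.54 and 8.14 RPKM in shCtl against 13.1 and 13.2 in shM2-3, from 839 and 813 counts against 1579 and 1431. The shM2-3 libraries were nearly alike and both above shCtl. NFKBIZ rose 1.65-fold (log2 fold change 0.72, standard error 0.0644, 95% interval 0.58 to 0.86, adjusted p = 2.53e-07) and passed in all 11 alternatives. It shares 194 exonic bases with NXPE3 on the same strand, and NXPE3 was itself higher, by a log2 fold change of 0.45 (adjusted p = 6.30e-05).

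TNFAIP3 encodes A20, an enzyme that edits ubiquitin chains and shuts off signalling to IKK. TNFAIP3 (chromosome 6, 137867214 to 137883314, plus strand) had RPKM values of 8.26 and 9.11 in shCtl and 8.95 and 9.57 in shM2-3, from 903 and 1013 counts against 1196 and 1158. For TNFAIP3 the groups overlapped in RPKM but not in counts scaled by the library sizes used in the test. Its log2 fold change was 0.16 (standard error 0.0724, 95% interval 0.00 to 0.31), and the adjusted p of 0.0659 missed the threshold, as it did in 9 of 11 alternatives, but was 0.0210 without shCtl replicate 2 and 0.0460 with the replicate number as a block. It shares 95 exonic bases with WAKMAR2 on the opposite strand, which had 4 to 9 counts in a library. NFKBIA and TNFAIP3 are both textbook feedback targets of NF-κB, and there were 4.01 and 4.21 NFKBIA transcripts per TNFAIP3 transcript in shCtl and 6.94 and 6.87 in shM2-3.

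Set against the subunits, the 3 classical inhibitors NFKBIA, NFKBIB and NFKBIE summed to 42.5 and 49.4 RPKM in shCtl and 72.2 and 76.3 in shM2-3. Per RPKM of the 5 subunits that came to 0.383 and 0.424 in shCtl and 0.746 and 0.775 in shM2-3. The ratio of NFKBIA to RELA alone was 0.583 and 0.622 against 1.29 in each of the shM2-3 libraries. On the RPKM scale RELA thus stood above its main inhibitor in shCtl and below it in shM2-3. By counts, which are not corrected for length, RELA stayed above NFKBIA in shM2-3 too (3565 and 3407 against 2789 and 2674). The RPKM ratios compare transcripts, not proteins, and the groups did not overlap in any of them.

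The rest of the pathway was followed in lists of receptors, ligands, adaptors and ubiquitin ligases, kinases, other regulators and target genes, of which 86 of 118 genes were tested. Of these, 48 were higher, 25 were lower and 13 did not pass, beside the 36.3% and 36.4% of all genes given above, and the median log2 fold change was 0.27. TLR3, LTB, C3, CSF2 and some genes not named were above 1 RPKM only with shM2-3, and NOD1 only with shCtl. Such genes were tested only because of the group where they were high, so their direction was largely set in advance. The counts and medians of the lists include them. The 9 tested receptors split into 6 higher and 3 lower, around a median of 0.69. TLR3, the endosomal sensor of double-stranded RNA, went from 13 and 11 counts to 108 and 77 (log2 fold change 2.79, adjusted p = 1.59e-05). TNFRSF9, the co-stimulatory receptor 4-1BB, rose by 1.59 on the log2 scale (adjusted p = 3.29e-09). NOD1, a sensor of bacterial cell wall, fell by 0.79 (adjusted p = 0.00155), and TNFRSF12A, the receptor for TWEAK, fell by 0.58 (adjusted p = 5.95e-07). The TWEAK gene TNFSF12 fell too, by 0.69 (adjusted p = 2.72e-04), and was the only 1 of 4 tested ligands to do so.

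Of the 3 ligands that rose, IL1B went from 240 and 242 counts to 2107 and 1972 (log2 fold change 2.94, adjusted p = 5.39e-13). Only IL1B of the 3 was above 1 RPKM in shCtl. The others were tested only through shM2-3, so their rise was largely set in advance. LTB, the lymphotoxin that activates the noncanonical branch, was at 0 counts in each shCtl library and at 87 and 88 with shM2-3, or at least 26.5-fold higher when a floor of 3 counts per library is used (adjusted p = 8.91e-07).

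Among the 23 tested adaptors and ubiquitin ligases, 10 were higher, 6 were lower and 7 did not pass, beside 36.3% and 36.4% of all genes. DESeq2 passed 7 as higher and 5 as lower, and each limma fit 7 and 6. IRAK2 and RIPK1, which relay signals from the IL-1 and TNF receptors, rose by 1.54 and 1.41 on the log2 scale (adjusted p = 2.53e-10 and 1.74e-08). RIPK2, the kinase of the NOD1 pathway, fell by 1.18 (adjusted p = 1.71e-08), and IRAK4, the kinase upstream of IRAK2, fell by 0.80 (adjusted p = 8.15e-06).

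Of 11 kinases and kinase partners, 8 were higher and 2 lower, beside 36.3% and 36.4% of all genes. In DESeq2, 5 were higher and 2 lower, and fewer passed as higher than in the main fit whichever library was left out. IKBKE, the inducible IKK relative, rose by 1.57 on the log2 scale (adjusted p = 9.14e-08). MAP3K8, which p105 holds inactive, showed a change of 0.61 on that scale (adjusted p = 0.0411), a call lost in 8 of 11 alternatives, among them DESeq2 (adjusted p = 0.0941) and the fits without shCtl replicate 2 (0.255), shM2-3 replicate 1 (0.0536) or shM2-3 replicate 2 (0.195). MAP3K14, the gene of NIK, fell by 0.77 (adjusted p = 2.25e-06), alongside NFKB2 and against RELB. TAB3, a partner of the kinase TAK1, fell by 0.37 (adjusted p = 0.00429, and 0.0502 without shCtl replicate 1).

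Of 16 other regulators, 9 were higher and 4 lower, beside 36.3% and 36.4% of all genes. BCL3, a nuclear IκB protein like NFKBIZ that binds p50 and p52, went from 425 and 428 counts to 1549 and 1310, a log2 fold change of 1.60 (adjusted p = 2.73e-10). TANK, a scaffold that binds TRAF proteins, rose by 1.16 on the log2 scale (adjusted p = 4.11e-08). NKIRAS1, which binds IκB proteins, fell by 0.96 (adjusted p = 9.29e-05), and PDLIM2, which promotes the breakdown of nuclear RELA, fell by 0.62 (adjusted p = 1.65e-05).

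Of 23 tested target genes, 12 were higher and 9 lower, beside 36.3% and 36.4% of all genes, around a median of 0.19. Past 2-fold were 9 and 4 of them, where 9.24% and 8.93% of all genes tested were called. C3, the central complement component, went from 34 and 30 counts to 1798 and 1688 (log2 fold change 5.62, adjusted p = 5.76e-14). CSF2, the GM-CSF gene, had 2 counts in all in shCtl and 52 in shM2-3, a ratio of 23.6 after scaling by library, with an exact 95% interval of 6.20 to 200 that covers counting error only (adjusted p = 9.22e-04). Its fitted log2 fold change of 4.40 was 3.50 without shCtl replicate 1 and 7.65 without shCtl replicate 2, the library that held both of its shCtl counts. GADD45B, a stress gene, fell by 2.89 on the log2 scale (adjusted p = 6.83e-13), and CXCL5, a neutrophil chemokine, fell by 1.19 (adjusted p = 4.41e-11). C3, CSF2 and a further higher gene not named were above 1 RPKM only with shM2-3, so their rise was largely set in advance. The 12 higher target genes and the 9 past 2-fold include them. GADD45B and CXCL5 were above 1 RPKM in every library. The target genes moved in both directions, with C3 and GADD45B at the far ends of the list.

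**Figure D5:**
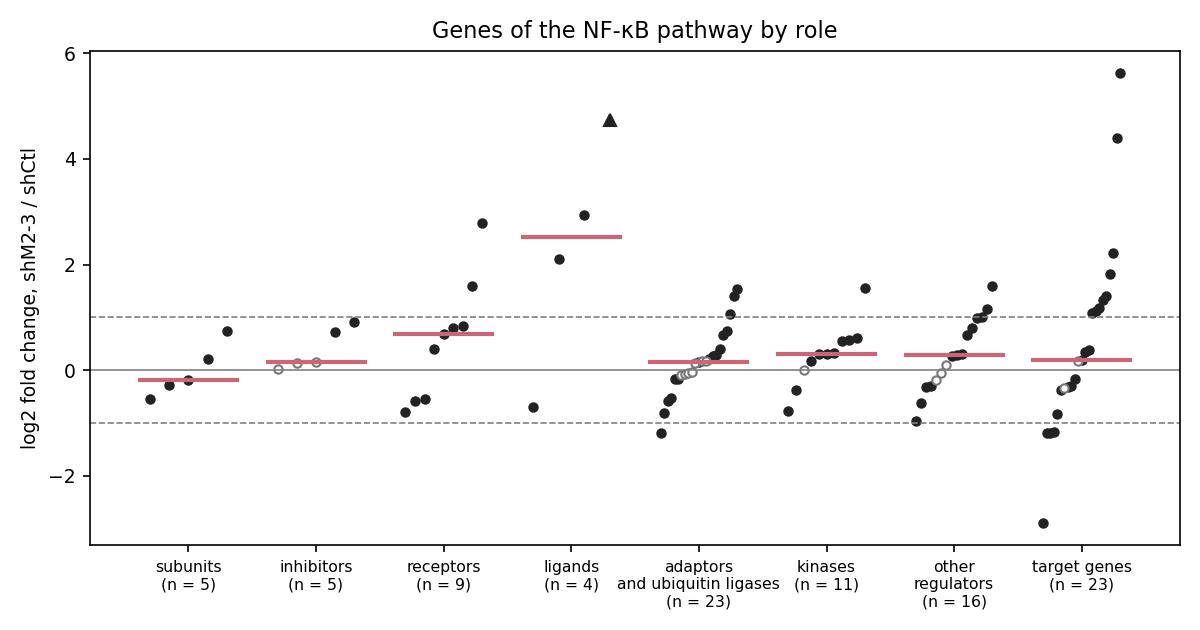
Log2 fold changes of the tested genes of each pathway list and of the 10 NF-κB genes, in shM2-3 relative to shCtl. Each point is 1 gene (filled where the adjusted p is 0.05 or less), the triangle is the lower bound for LTB, bars mark medians and dashed lines 2-fold. The ligands and target genes hold the widest spread while the 10 genes lie between -0.54 and 0.91.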

How the data were processed

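RNA from 2 shCtl and 2 shM2-3 samples of ES-2 cells was sequenced as non-strand-specific paired ends. The authors aligned reads to hg38 with HISAT2 (2.0.4 in the submitters' processing notes, which also name Partek 7.18), removed ambiguous and poorly mapped reads and quantified RefSeq genes. The authors deposited estimated counts, without normalization, which need not be whole. The deposited RPKM values are those counts divided by gene length and by a factor per library, so counts and RPKM of a gene can differ slightly in relative level between libraries.

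Counts were rounded and tested with edgeR 4.0.16 in R 4.3.3 (TMM, estimateDisp, glmQLFit, glmQLFTest) over the 12157 genes above 1 RPKM in at least 1 library. Calls took p-values adjusted by Benjamini-Hochberg up to 0.05 and at least a 2-fold change. The standard error is the log2 fold change divided by the square root of F. Totals of 20051083 to 23978660 counts and 2 libraries per group limit precision. The calculation was tested on simulated data. Coordinates come from GENCODE release 44 and promoters from RefSeq.

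The genes and lists were chosen with earlier results of these data known. All 10 genes were named, with MAML2 and, per pathway list, the 2 lowest and 2 highest changes among genes that passed in that direction. NXPE3, SIRT2 and WAKMAR2, and the marker genes singled out, were named after their values were seen. A result for 1 of the marker genes is not reported here. Alternatives were DESeq2 1.42.0, total counts, other filters, limma 3.58.1 on log2(RPKM + 0.1) and log2(RPKM + 1), a fold limit of 1.5, the replicate number as a block, and the omission of each library.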

Additional observations from a re-analysis of the deposited data

How the results depend on the processing

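Directions held for NFKB1, NFKB2, REL, RELA, RELB, NFKBIA, NFKBIE, NFKBIZ and TNFAIP3 in all 11 alternatives to the test. NFKB2, RELA, RELB, NFKBIA and NFKBIZ also passed in all 11, RELA with an adjusted p of at most 0.0451. NFKBIB turned negative with total counts (-0.014), with no filter (-0.0089) and with limma on log2(RPKM + 0.1) (-0.035) and log2(RPKM + 1) (-0.031), and ranged from -0.13 to 0.19 with a library left out. SIRT2 ranged from -0.24 to 0.027 in the same way. At a fold limit of 1.5, 3 of the 10 genes were called higher (NFKBIA, RELB and NFKBIZ), with 2296 genes higher and 2302 lower over all genes, and limma on log2(RPKM + 1) called 596 genes higher. Leaving out a library called 0 to 1 of the 10 higher, the 1 being NFKBIA. By summed counts, which are not corrected for length, the subunit shares in shCtl and shM2-3 were 9.24% and 12.3% for NFKB1, 37.8% and 29.8% for NFKB2, 5.27% and 4.97% for REL, 42.2% and 42.4% for RELA, and 5.53% and 10.6% for RELB. Over all genes, same-numbered replicates did not deviate together (correlation -0.0081). That value cannot decide whether they shared a culture, an infection or a preparation, and the labels do not say. With the replicate block 1123 genes were called higher and 1079 lower with the 2-fold limit, and 0 of the 10. By adjusted p alone, 5 of the 10 passed as higher, TNFAIP3 (adjusted p = 0.0460 in edgeR) added, and 3 as lower. In the main fit 36.3% of all genes passed that way as higher and 36.4% as lower, and the shares with the block are not given. The named pathway genes, MAML2, NXPE3 and SIRT2, 26 genes in all, gave 286 values. Of these, 276 kept direction and call, 9 lost the call and 1 turned. The named pathway genes had been chosen because they passed in the main fit. Over all pathway lists, 48 genes passed as higher and 25 as lower in the main fit. The alternatives that kept all 4 libraries gave 41 to 51 higher and 22 to 27 lower. The causes of these shifts were not tested.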
